A study of Mus musculus with 11 samples.

Results

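The miR-181 family was measured in mouse embryonic stem cells (mES cells) with and without the gene Trim71. Its members were taken by name from the deposited miRNA table, as every listed arm of the hairpins miR-181a, miR-181b, miR-181c and miR-181d. The rule found 6 of the 592 miRNAs in the table, 4 from the 5p arm of a hairpin and 2 from the 3p arm. The members were miR-181a-5p, miR-181b-5p, miR-181c-5p, miR-181d-5p, miR-181a-1-3p and miR-181c-3p.

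All cells were male C57BL/6 mES cells grown with serum and LIF. Every clone carried floxed Trim71 alleles and a tamoxifen-activated Cre expressed from the Rosa26 locus. Cells labelled Trim-/- (here Trim71-/-) had received 500 nM 4-hydroxytamoxifen over 2 days, and at least 7 further days of culture followed. These are the labels' values, and the study's methods state a lower dose and a shorter culture. The control cells, labelled Trimfl/fl (here Trim71fl/fl), kept the floxed alleles, and the study's methods give a solvent treatment for them. Magnetic sorting before harvest kept the cells with SSEA-1, a surface antigen of undifferentiated mES cells. There were 5 Trim71-/- and 6 Trim71fl/fl libraries from 2 clones. Clone 1 gave 1 library of each genotype on days 1, 5 and 6, and clone E3 on days 3 and 4. The day 2 library was Trim71fl/fl alone and was left out, because it had no partner of the other genotype. Its values also equalled the mean of the other Trim71fl/fl libraries before the floor, within 0.1%, for 592 of 592 miRNAs, the 6 members included. Trim71 mRNA is not part of a miRNA table, so its loss was not measured here. Nothing in the labels says that the days were separate derivations, so p-values measure only the spread between these libraries.

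A miRNA guides an Argonaute protein to messenger RNAs, mostly through its seed, the short stretch near the 5′ end that pairs with the target. Both arms of a hairpin can yield a mature miRNA, although usually the miRNA of a single arm predominates. The miR-181 family is best known from lymphocyte development, where it sets the sensitivity of T cell receptor signalling, and in mES cells it is known to repress the Polycomb gene Cbx7. Trim71, a TRIM-NHL protein also called Lin41, binds RNA and is itself a classical target of the let-7 miRNAs.

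The mature sequences show how closely the members are related. They were taken from RefSeq on GRCm38.p6, which held 10 mature names of these hairpins, 6 of them in the table. The other 4 (miR-181a-2-3p, miR-181b-1-3p, miR-181b-2-3p and miR-181d-3p) were not analysed here. Capitals mark the seed, bases 2 to 8 counted from the 5′ end. The 5p miRNAs share the seed ACAUUCA:
miR-181a-5p: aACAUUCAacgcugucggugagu
miR-181b-5p: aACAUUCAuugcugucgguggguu
miR-181c-5p: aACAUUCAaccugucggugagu
miR-181d-5p: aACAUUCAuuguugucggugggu
The 3p miRNAs share the seed CCAUCGA:
miR-181a-1-3p: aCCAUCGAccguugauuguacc
miR-181c-3p: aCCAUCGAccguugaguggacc

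The 5p miRNAs fell into 2 close pairs. A single inserted or deleted base separated miR-181a-5p from miR-181c-5p. From miR-181b-5p to miR-181d-5p there were 2 changes, the substitution C12U and a difference in length. Between these pairs there were 4 to 5 changes. The 3p miRNAs differed by U16G and U19G, written from miR-181a-1-3p to miR-181c-3p. Of the 592 miRNAs, 463 were matched to a RefSeq sequence by name, and 0 of those outside the family carried either seed. How the reads of near-identical members were assigned was not tested.

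The family is encoded in 6 hairpins at 3 loci (GENCODE M21, GRCm38). Mir181c (chr8:84178873-84178961) and Mir181d (chr8:84178716-84178787) lie on the minus strand, 85 bases apart, in an intron of the germ cell gene Nanos3, which has the same orientation. Mir181a-1 (chr1:137966455-137966541) and Mir181b-1 (chr1:137966639-137966718) lie on the plus strand, 97 bases apart. Both are in an intron of the transcript Gm4258 and overlap an exon of the lincRNA A430106G13Rik on the same strand. Mir181a-2 (chr2:38852735-38852810) and Mir181b-2 (chr2:38853830-38853918) are 1019 bases apart on the plus strand, opposite an intron of the nuclear receptor gene Nr6a1. Since miR-181a-5p and miR-181b-5p are each made from hairpins on both chromosome 1 and chromosome 2, their values cannot be divided between these loci. The miRNAs miR-181c-5p, miR-181c-3p and miR-181d-5p come from the Nanos3 locus alone, and miR-181a-1-3p from the chromosome 1 locus alone.

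Values are normalised read counts after the authors' batch correction, with values under 1 set to 1, the floor. For each member the Trim71-/- and Trim71fl/fl values of a day added up to the same total on all 5 days, within 0.1% before the floor. For miR-181c-5p on day 4 the value before the floor was itself taken from this total, so the total was not observed there. A high value in one library of a day therefore comes with a low value in its partner, both groups have the same SD before the floor, and each day gives a single independent difference. The raw number of reads is unknown, so no interval from counting can be given. The sums of all values were 3751519 to 5551715 in the Trim71-/- libraries and 2742673 to 4332525 in their Trim71fl/fl partners.

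In Trim71fl/fl mES cells the family was dominated by miR-181d-5p, with 2822 ± 319 normalised reads (mean ± SD, n = 5). Next came miR-181c-5p with 977 ± 283, miR-181c-3p with 427 ± 92.8, miR-181a-5p with 217 ± 37.9, miR-181b-5p with 91.4 ± 8.93 and miR-181a-1-3p with 10.6 ± 5.55. The 3 highest members thus all came from the Nanos3 locus. This order held in 5 of 5 Trim71fl/fl libraries, and the ranges of neighbours did not overlap. The ratios of neighbouring means were 2.89, 2.29, 1.97, 2.37 and 8.61 from the top of the order down. Each step gave an exact permutation p of 0.0625 (two-sided, within libraries), the smallest that 5 libraries allow. As the order was taken from these same libraries, this p restates the 5 of 5 and is no separate support. Because same-day values add up to a constant for each member, the mean of a pair is the same on all 5 days before the floor. The 5 of 5, the ranges and the SDs therefore do not measure how levels vary between days, here or in Trim71-/- cells. Dividing by the length of the mature miRNA, 22 to 24 bases, left the order as it was. Among all 592 miRNAs, ranked by the mean of the 10 paired libraries, miR-181d-5p was number 86, miR-181c-5p number 158, miR-181c-3p number 196, miR-181a-5p number 269, miR-181b-5p number 339 and miR-181a-1-3p number 547.

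In Trim71-/- cells the top and the bottom of the order were the same, with miR-181d-5p at 2800.5 ± 319 and miR-181a-1-3p at 14.8 ± 5.55 (n = 5). The middle of the order was less clear, and 2 of 5 libraries showed the Trim71fl/fl order. Here miR-181c-3p averaged 487 ± 92.8 and miR-181c-5p 450.3 ± 277, with overlapping ranges, and miR-181c-3p was the higher in 3 of 5 libraries. The range of miR-181c-5p also overlapped that of miR-181a-5p (142.3 ± 37.9), because its day 4 value was at the floor of 1, and in the other 4 libraries it was above miR-181a-5p. The miRNA miR-181b-5p averaged 93.7 ± 8.93 and lay below miR-181a-5p in 5 of 5 libraries, although their ranges overlapped (exact permutation p = 0.0625).

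**Figure D1:**
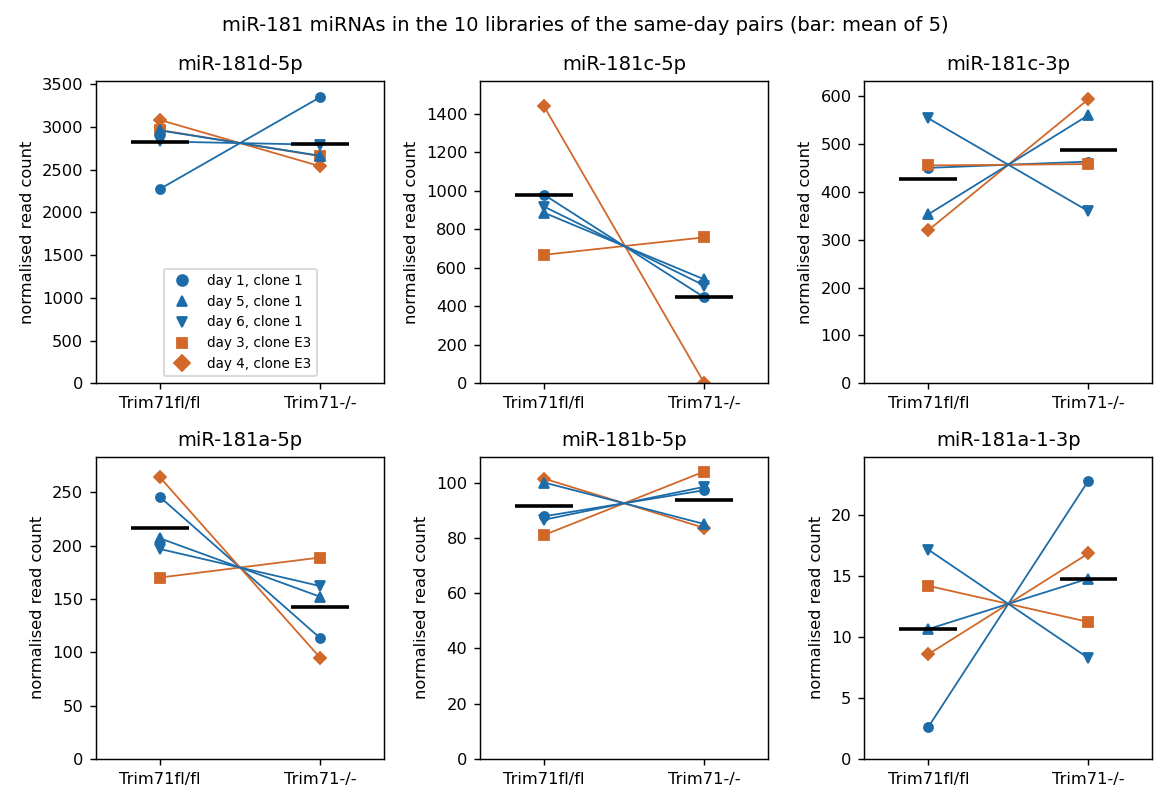
Normalised read counts (vertical axes, each from 0) of the 6 miR-181 miRNAs in Trim71fl/fl and Trim71-/- libraries; lines join libraries of 1 day, colours give the clone and black bars are means of 5. The lines of a panel cross at a single point because same-day values add up to a constant, and miR-181c-5p stands at the floor of 1 in the day 4 Trim71-/- library.

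The question put to these libraries was whether the loss of Trim71 changes the miRNAs of mES cells. For the miR-181 family, 3 members were fitted higher and 3 lower in Trim71-/- cells, and no member passed the test. A miRNA counted as called when it changed by more than 1.5-fold at an unadjusted p under 0.05 in limma (genotype and day as factors, log2(value + 1)), which are the thresholds of the study. Of the 6 members 0 were called, against 5.41% of all miRNAs (32 of 592, 5 higher and 27 lower). With the p-value adjusted over all miRNAs, 0 of 6 members and 0% of all miRNAs were below 0.05. Unadjusted, 0 of 6 members and 32 of 592 miRNAs were below 0.05. The values of the genotypes overlapped in all 6 members, whereas in 11.5% of all miRNAs they did not. Likewise 0 members went the same way on all 5 days, against 11.5% of all miRNAs, which the constant sums make the same 68 miRNAs. The median log2 fold change was 0.01 over the members and 0.03 over all miRNAs.

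The most abundant member, miR-181d-5p, was level between the genotypes. Its Trim71-/- values were 3348, 2658, 2541, 2663 and 2792 on days 1, 3, 4, 5 and 6. The Trim71fl/fl values of the same days were 2275, 2964, 3082, 2959.6 and 2831. Day 1 stood apart from the others, as the only day on which the Trim71-/- library was the higher. The log2 fold change was -0.01 (SE 0.25, 95% interval -0.62 to 0.60, limma adjusted p = 0.991, lower on 4 of 5 days, exact permutation p = 0.9375). The sign of so small a value depended on the day left out, and the log2 fold change was -0.15 without day 1 and 0.057 without day 4.

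Its neighbour in the Nanos3 intron, miR-181c-5p, had the lowest fitted log2 fold change of the family, carried largely by 1 library. In Trim71-/- cells its values were 446, 758, 1, 539 and 507 on days 1, 3, 4, 5 and 6. The Trim71fl/fl libraries held 979, 667, 1437, 885 and 917. Trim71-/- was the lower on 4 of 5 days, and day 3 went the other way. On day 4 the value before the floor, taken from the constant sum, was -12.6, a number that no read count can take. The same-day log2 difference of -9.49 on that day is therefore set by the floor. The log2 fold change was -2.40 (SE 1.47, 95% interval -5.98 to 1.18, limma adjusted p = 0.638, exact permutation p = 0.125). Without day 4 the log2 fold change was -0.63, with an unadjusted limma p of 0.101. The ratio of the untransformed means, on which the floor has little weight, was 0.461 with the floor and 0.458 before it. Both ratios include day 4, so they do not show how far the difference rests on that library.

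The floor on day 4 was not particular to miR-181c-5p. In the day 4 Trim71-/- library 16 miRNAs were at the floor, and 5 of them averaged at least 100 in Trim71fl/fl cells. In all, 106 of the 592 miRNAs had a value at the floor, of which miR-181c-5p was the only 1 among the 6 members.

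The sequence nearest to miR-181c-5p, miR-181a-5p, was also lower on 4 of 5 days. Its Trim71-/- values were 113, 189, 94.9, 152 and 162 on days 1, 3, 4, 5 and 6. Against these stood Trim71fl/fl values of 246, 170.1, 264, 207 and 197. As for miR-181c-5p, the lowest Trim71-/- values were those of days 1 and 4, and day 3 was the exception. The log2 fold change was -0.63 (SE 0.32, 95% interval -1.42 to 0.16, limma adjusted p = 0.607, unadjusted p = 0.0989, exact permutation p = 0.125). With no replicate block, that is without day as a factor, the log2 fold change was the same and both thresholds were passed in limma, but that fit counts each mirrored same-day difference as 2 libraries, and 101 of 592 miRNAs passed in it. Division of each library by its total gave -0.90 and a call, while the median of all miRNAs moved from 0.03 to -0.24, a shift of like size. In the main fit, with day as a factor, leaving out day 4 gave a log2 fold change of -0.42, again not past the thresholds.

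The direction of miR-181a-5p and miR-181c-5p was the same on 5 of 5 days, including day 3. Their relative same-day differences, each divided by the member's mean, lay a root mean square distance of 0.524 apart, or 0.211 without day 4 and its floored library. The closely related miR-181b-5p and miR-181d-5p were at a distance of 0.214 (0.239 without day 4) and shared a direction on 3 of 5 days. The miRNAs miR-181c-5p and miR-181d-5p, which come from hairpins 85 bases apart, shared a direction on 3 of 5 days at a distance of 1.02, or 0.669 without day 4. For their part miR-181a-5p and miR-181b-5p, encoded side by side on chromosomes 1 and 2, shared it on 3 of 5 days at 0.531 (0.461 without day 4). These distances rest on 5 days and the libraries of all members are the same, so they are a description, and the part of read assignment in them was not tested.

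The values of miR-181b-5p were the most even of the family. They were 97.2, 104, 83.6, 85.0 and 98.5 in Trim71-/- cells on days 1, 3, 4, 5 and 6, and 87.8, 81.0, 101, 100.02 and 86.5 in Trim71fl/fl cells. Trim71-/- was higher on days 1, 3 and 6 and lower on days 4 and 5. Fitted over the pairs, the log2 fold change was 0.04 (SE 0.24, 95% interval -0.55 to 0.63, limma adjusted p = 0.959, exact permutation p = 0.8125). Dividing by library totals gave -0.23, next to the median of all miRNAs of -0.24 under that scaling.

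**Figure D2:**
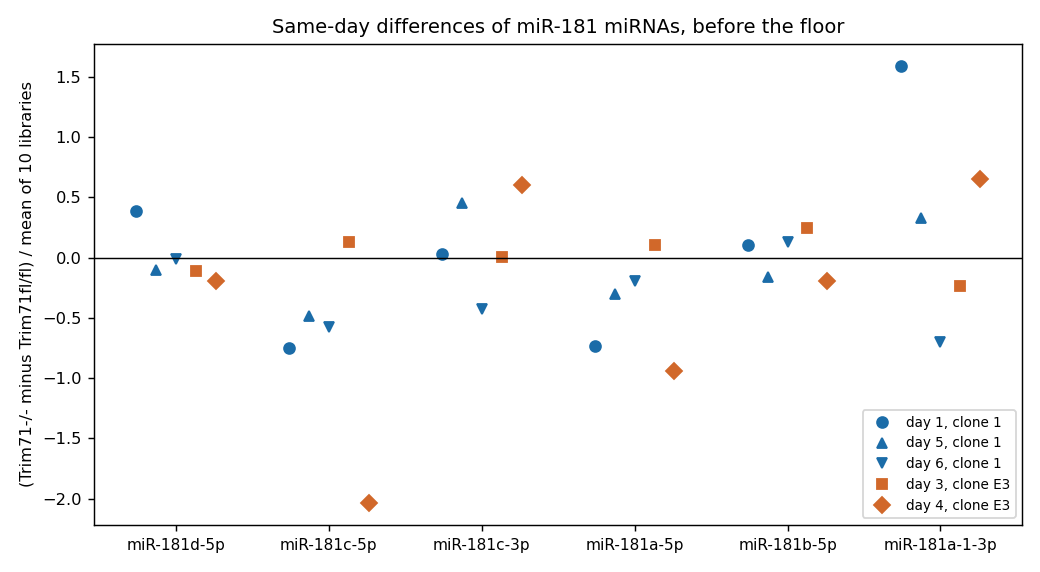
Same-day difference of Trim71-/- minus Trim71fl/fl, before the floor and divided by the mean of the 10 libraries (vertical axis, no unit), for each miR-181 miRNA and day, coloured by clone. Points of miR-181a-5p and miR-181c-5p lie on the same side of 0 on each of the 5 days, and day 4 of miR-181c-5p is the lowest point.

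The 3p miRNAs were fitted higher in Trim71-/- cells, and neither passed the test. The values of miR-181c-3p were 463, 458, 594, 561 and 359.8 in Trim71-/- libraries on days 1, 3, 4, 5 and 6. In the Trim71fl/fl libraries they were 450.3, 455, 320, 353 and 554. Days 4 and 5 were higher in Trim71-/- cells, day 6 was lower, and days 1 and 3 were nearly level. This gave a log2 fold change of 0.20 (SE 0.31, 95% interval -0.56 to 0.95, limma adjusted p = 0.773, higher on 4 of 5 days, exact permutation p = 0.3125). It rested on days 4 and 5, being 0.023 without day 4, 0.080 without day 5 and 0.40 without day 6. After division by library totals it was -0.072, again with the median of all miRNAs at -0.24.

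The least abundant member, miR-181a-1-3p, is the passenger arm of the chromosome 1 hairpin. In Trim71-/- cells it had 22.8, 11.2, 16.8, 14.8 and 8.25 normalised reads on days 1, 3, 4, 5 and 6. The partner libraries had 2.61, 14.2, 8.56, 10.6 and 17.1. Trim71-/- was higher on days 1, 4 and 5 and lower on days 3 and 6. Its log2 fold change was 0.55 with an SE of 0.56, the widest of the members after miR-181c-5p (95% interval -0.80 to 1.91, limma adjusted p = 0.680, exact permutation p = 0.500). Day 1 carried it, and without that day the log2 fold change was 0.013. It was 0.94 without day 6, 0.31 after division by library totals and 0.28 with a pseudocount of 10. The miRNAs miR-181a-1-3p and miR-181c-3p, with a common seed, went the same way on 4 of 5 days.

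**Figure D3:**
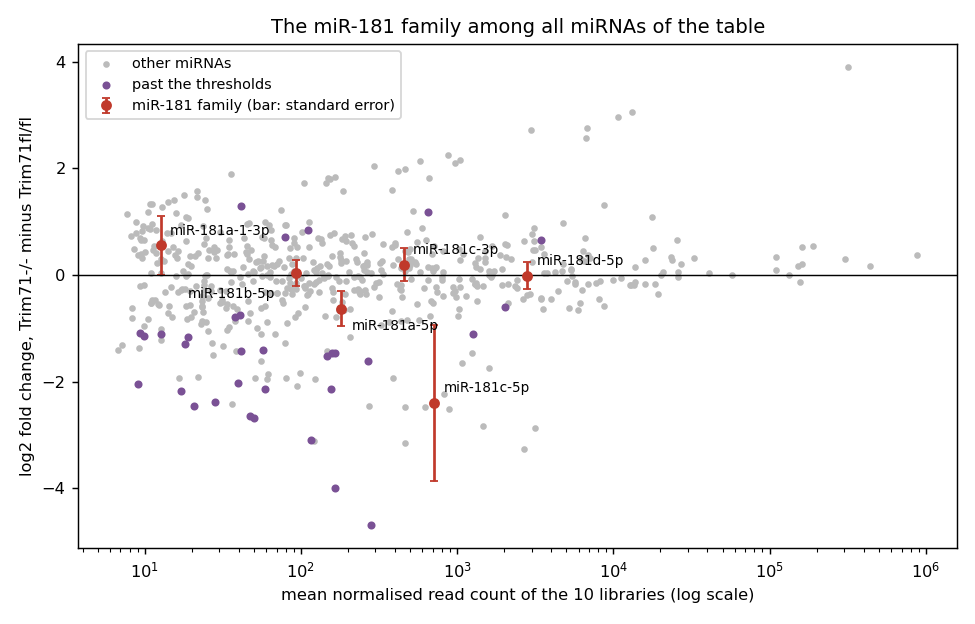
Log2 fold change (vertical axis, Trim71-/- minus Trim71fl/fl) against the mean normalised read count of the 10 libraries (horizontal axis, log scale) for the 592 miRNAs, with the miR-181 miRNAs in red (bars are standard errors) and the 32 called miRNAs in purple. The 6 red points are all outside the called miRNAs, and miR-181c-5p has the longest bar.

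The arms of miR-181c can be compared within a library, because both come from the single hairpin Mir181c. In Trim71fl/fl cells the 5p miRNA exceeded the 3p miRNA in 5 of 5 libraries, at a ratio of 2.17, 1.46, 4.49, 2.51 and 1.66 on days 1, 3, 4, 5 and 6. The Trim71-/- ratios on those days were 0.962, 1.65, 0.00168, 0.962 and 1.41, so that the 5p miRNA was the higher in 2 of 5. The ratio of day 4 rests on the floored value. The same-day change in the log2 ratio, of values + 1, was -1.17, 0.17, -10.38, -1.38 and -0.23. Its mean was -2.60 with day 4 (n = 5, exact permutation p = 0.125) and -0.65 without it (n = 4, exact permutation p = 0.250). It fell on 4 of 5 days, and neither value is past the threshold, which 5 pairs cannot reach in this test. The arm ratio and its leave-out values were planned, and the exact test of its change was added after the values had been seen.

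**Figure D4:**
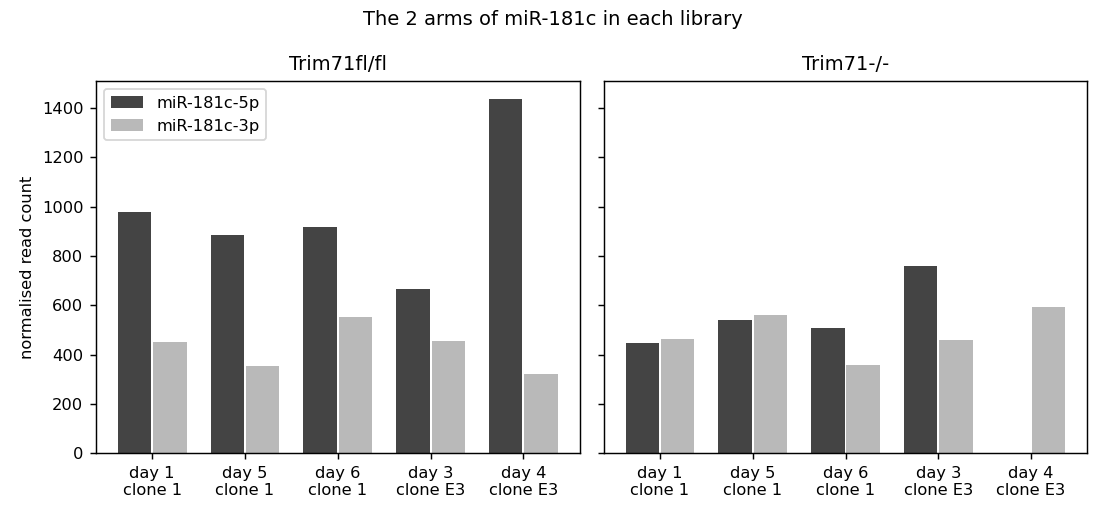
Normalised read counts (vertical axis) of miR-181c-5p (dark bars) and miR-181c-3p (light bars) in each library, by day and clone. The dark bar is the taller in all 5 Trim71fl/fl libraries and in 2 of 5 Trim71-/- libraries, and at day 4 in Trim71-/- its value of 1 is too small to see.

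For miR-181a the ratio takes the 5p miRNA of both hairpins over the 3p miRNA of Mir181a-1 alone. It ranged from 11.5 to 94.3 in Trim71fl/fl libraries (median 19.5) and from 4.98 to 19.6 in Trim71-/- libraries (median 10.3). The mean same-day change was -1.18 on the log2 scale (n = 5, exact permutation p = 0.3125) and -0.52 without day 1 (n = 4, exact permutation p = 0.625). The ranges of the genotypes overlapped.

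The libraries come from 2 clones, which were also taken alone. The log2 fold change of miR-181c-5p was -0.90 in clone 1 (days 1, 5 and 6) and -4.65 in clone E3 (days 3 and 4). The value of clone E3 rests on the floored day 4 value alone, as on day 3 Trim71-/- was the higher. Each passed both thresholds in a limma fit of that clone alone, as did 59 of all 592 miRNAs in clone 1 and 36 in clone E3. For miR-181a-5p it was -0.61 in clone 1 and -0.66 in clone E3. For miR-181d-5p it was 0.13 and -0.22, for miR-181b-5p 0.03 and 0.04, for miR-181c-3p 0.03 and 0.45, and for miR-181a-1-3p 0.73 and 0.29. The difference between the clones was tested as an interaction of genotype and clone in limma. It passed an unadjusted p under 0.05 in 0 of 6 members, against 5.57% of all miRNAs (33 of 592), and was -3.75 for miR-181c-5p (SE 2.77, adjusted p = 0.652).

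Summed over its members, the family had 3331 to 4491 normalised reads in Trim71-/- libraries and 4039 to 5213 in Trim71fl/fl libraries. As a share of all values this was 0.0723% to 0.104% and 0.108% to 0.165%. The ranges of the sums overlap. Those of the shares do not, but the library totals moved with them, higher in Trim71-/- on 4 of 5 days. Division by totals lowered miRNAs in general, with a median log2 fold change of -0.24 over all miRNAs and 2 called higher against 48 lower. For how many of all miRNAs the shares do not overlap was not counted, and the part of the totals in the family's shares was not tested. Within the family miR-181d-5p took 63.6% to 76.3% of the reads in Trim71-/- and 56.3% to 68.1% in Trim71fl/fl libraries. The 76.3% and the lowest family sum, 3331, are both of the day 4 Trim71-/- library, where miR-181c-5p was at the floor.

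The miRNAs most like the main members were sought by their 5 same-day log2 differences, over 586 miRNAs outside the family. Nearest to miR-181d-5p were miR-92b-3p, miR-92a-3p and miR-191-5p, at root mean square distances of 0.157, 0.167 and 0.223, where the median of all was 1.06. Nearest to miR-181c-5p were miR-381-3p, miR-152-5p and miR-148a-5p at 1.496, 1.56 and 1.58, with a median of 4.49. These 3 miRNAs were likewise at the floor of 1 in the day 4 Trim71-/- library, which fixes much of their likeness to miR-181c-5p.

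The miR-125 family, which like miR-181 is known to repress Cbx7, had 4 miRNAs in the table. All 4 were fitted higher in Trim71-/- cells and 0 were called, against 5.41% of all miRNAs. Their log2 fold changes had a median of 0.68. The most abundant, miR-125a-5p, had 1639 ± 371 normalised reads in Trim71fl/fl and 2124 ± 371 in Trim71-/- libraries (n = 5, log2 fold change 0.38, limma adjusted p = 0.645).

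As a check of the cell type, 23 miRNAs of the mES cell clusters miR-290 to miR-295 and miR-302 with miR-367 took 54.2% to 58.3% of all values in Trim71-/- and 55.6% to 58.5% in Trim71fl/fl libraries. Of the 14 from miR-290 to miR-295, 10 were fitted higher and 4 lower in Trim71-/- cells, and of the 9 from miR-302 and miR-367 all were fitted lower, at log2 fold changes of -1.85 to -0.28. Of these 23 miRNAs 0 were called, and the counts of calls that follow likewise stand against 5.41% of all miRNAs. Fibroblast miRNAs (9) took 0.367% to 0.718% and 0.481% to 0.821%, with 7 fitted higher and 2 lower in Trim71-/- and 0 called. Neural miRNAs (6) took 0.157% to 0.181% and 0.123% to 0.153%, and all 6 were fitted higher in Trim71-/- with 0 called. Blood miRNAs (6) took 0.0218% to 0.0766% and 0.0538% to 0.146%, with 1 fitted higher and 5 lower in Trim71-/- and 1 called lower. The SSEA-1 sort kept cells with that antigen, and how far it removed fibroblast, neural or blood cells was not measured. Their part in the miR-181 values was not tested, and in such bulk samples fewer cells of a type and less miRNA per cell cannot be told apart.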

How the data were processed

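Small RNA of 11 libraries was sequenced, per the study's methods, with the NEBNext Multiplex Small RNA kit, whereas the labels name an mRNA kit. The authors trimmed reads, aligned them with Bowtie2 2.2.1 to mm10 and miRBase, normalized counts with DESeq2, corrected them for batch in Partek 6.6, raised what was below 1 to 1 and kept miRNAs with a mean of 10 or more in at least 1 genotype. The deposited values are therefore a signal on the scale of normalised read counts. The floor acts on values under 1. It also reached miR-181c-5p, with a mean of 977 in Trim71fl/fl libraries. Taken from the constant sum, its value in the day 4 Trim71-/- library was -12.6 before the floor. How the batch correction changed values, high or low, was not tested, because the values before it are unknown. Same-day sums were constant before the floor, also for the most abundant member, miR-181d-5p. What made them so was not tested, and raw depth is unknown.

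The comparison used 5 same-day pairs (10 libraries), joined by the day in the labels. Deviations of same-day libraries correlated at -0.65 to -0.41 across miRNAs on the log2 scale. With constant sums such deviations mirror each other, so these correlations are no check of the pairing. A linear model in limma 3.58.1 (R 4.3.3, lmFit with eBayes, no trend) took log2(value + 1) as response and genotype plus day as terms, with Benjamini-Hochberg adjustment over 592 miRNAs, so fold changes of low miRNAs are understated. The day 2 library was left out. Exact permutation of genotypes within days used 32 sign patterns, two-sided, with a smallest p of 0.0625. Subtracting the partner from the constant sum gave a value before the floor.

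All miR-181 miRNAs in the table are named, with the 3 miRNAs nearest to each of the 2 most abundant members, and lists of miR-125, haematopoietic and cell type marker miRNAs. The members and lists were chosen with earlier results of these data known. Alternatives were other blocks, all 11 libraries, each pair left out, each clone alone, division by totals or by median-of-ratios factors, pseudocounts of 0.1 and 10, limma with trend, untransformed values, miRNAs without a floored value and a mean of at least 100. Untransformed values before the floor, distances between members without day 4 and the exact tests of the arm ratios were added after the data were seen. The fit was tested on simulated data. Plots used Python 3.11.15, pandas 2.3.3 and matplotlib 3.10.9.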

Additional observations from a re-analysis of the deposited data

Results flagged for a closer look

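Of 24 sets of 5 values examined for a sample far from the others, 3 were marked, where chance marks about 1 in 20. The log2 ratio of the miR-181c arms was -8.22 in the day 4 Trim71-/- library, far below the other Trim71-/- libraries. The same-day log2 difference of miR-181c-5p was -9.49 on day 4, far below the other days. Both rest on the value of miR-181c-5p at the floor in that library. The family's share of all values was 0.165% in the day 5 Trim71fl/fl library, above the other Trim71fl/fl libraries, and that library also had the lowest total of the 11, 2742673.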

How the results depend on the processing

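Over the alternatives, the log2 fold changes of the members kept their direction and their side of the thresholds in 97 cases, passed the thresholds in 6 and changed sign in 8. The direction held in 19 of 19 alternatives for miR-181a-5p, 18 of 18 for miR-181c-5p and miR-181a-1-3p (the latter at 0.013 without day 1), 18 of 19 for miR-181c-3p, 15 of 18 for miR-181b-5p and 15 of 19 for miR-181d-5p. The number of members past the thresholds was 1 in place of 0 with no replicate block, with clone as the block, in all 11 libraries and after division by totals (miR-181a-5p each time), and in clone 1 alone and clone E3 alone (miR-181c-5p each time). Among all 592 miRNAs 101 rather than 32 passed with no replicate block, 93 with clone as the block, 116 in all 11 libraries, 59 in clone 1 alone, 50 after division by totals and 15 of the 329 with a mean of at least 100. With no replicate block 42 were higher and 59 lower, and after division by totals 2 were higher and 48 lower. The fits with no day term count each mirrored same-day difference as 2 libraries. Leaving out each pair in turn gave 16 (without day 1) to 67 (without day 4). Division by totals, which shifts the median of all miRNAs to -0.24, turned miR-181b-5p to -0.23 and miR-181c-3p to -0.072. Leaving out a pair moved miR-181b-5p between -0.045 and 0.11 and miR-181d-5p between -0.15 and 0.057, and in clone 1 alone miR-181d-5p was at 0.13. The mean log2 arm ratio of miR-181c in Trim71-/- libraries, -1.42, ranged from -1.96 to 0.28 with a pair left out, the highest without day 4, and was 0.13 in clone 1 and -3.75 in clone E3 alone. Without day 3, 1 member (miR-181c-5p) and otherwise 0 differed between clones at an unadjusted p under 0.05, against 12.5% of all miRNAs (74 of 592), with the floored day 4 then the only day of clone E3. With 5 pairs of unknown read depth, differences within the printed intervals could not be resolved.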

Other observations

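Beside miR-181, 11 other haematopoietic miRNAs were in the table, among them the 6 blood miRNAs given above with their 1 call. The fit put 5 of them higher and 6 lower in Trim71-/- cells. Their log2 fold changes had a median of -0.27. By limma 0 were called higher and 1 lower, against 5.41% called of all miRNAs. The called miRNA was miR-142-3p, an abundant miRNA of blood cells, at 847 ± 381 normalised reads in Trim71-/- and 1689 ± 381 in Trim71fl/fl libraries (n = 5, log2 fold change -1.11, limma unadjusted p = 0.0469, adjusted p = 0.607). The endothelial miR-126a-3p, the most abundant of the list, had 5553 ± 607 and 5164 ± 607 normalised reads (log2 fold change 0.11, limma adjusted p = 0.862).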
